A study of Mus musculus with 6 samples.

Results

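The macrophage and myeloid identity genes are a list of 45 genes that mark macrophages and related cells of the blood, or that such cells use. Their probes were found through the RefSeq accession of each probe, a probe was kept where every array flagged it as well above background in 1 dye or the other (the same dye throughout), and the brightest kept probe stood for its gene. By this rule 40 of the 45 genes were measured, among 13706 genes in all. RNA came from the tibialis anterior (TA, a muscle of the front of the lower leg) of 3 N1ICD-*mdx* and 3 *mdx* mice, all 9-month old, of the 129 × C57BL/6 background and kept on regular chow. Both groups carry the *mdx* mutation and so lack dystrophin, and there was no group with intact dystrophin. In N1ICD-*mdx* mice MCK-Cre also turns on the Notch1 intracellular domain (N1ICD, the constitutively active part of the Notch1 receptor) from the *Rosa26* locus in muscle cells that have already fused into fibers, so that the transgene is driven in the muscle cells while the genes described here are mainly those of other cells in the tissue. Each array held 1 N1ICD-*mdx* muscle in Cy5 and the *mdx* muscle of the same replicate number in Cy3, with no dye swap, so that dye and genotype cannot be told apart.

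Muscle that lacks dystrophin undergoes repeated cycles of fiber damage and repair. Monocytes from the blood enter damaged muscle, first as inflammatory cells that clear debris and later as macrophages that aid repair, and both differ from the macrophages that reside between healthy fibers. Macrophages arise under the transcription factor PU.1 (*Spi1*) and survive on signals through the receptor *Csf1r*. The genes below are given by role, from the factors that specify the lineage to the receptors and effectors that the mature cells carry.

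Among the macrophage and leukocyte markers, *Cd68*, *Adgre1*, *Csf1r*, *Mrc1*, *Lyz1*, *Lyz2*, *Itgb2* and *Ptprc* were well above background in all 6 muscles. *Itgb2* and *Ptprc* are carried by leukocytes in general and do not mark macrophages alone. *Spi1* was well above background in 2 of the 3 N1ICD-*mdx* muscles and all 3 *mdx* muscles, and *Cd163* was not kept. Since the rule itself admits a gene by this flag, these counts describe the list and do not test its label. In whole muscle, fewer macrophages and less RNA of these genes in each macrophage cannot be told apart. A level below is the log2 intensity of 1 dye after background correction and normalization, and a ratio is the log2 of N1ICD-*mdx* over *mdx* on 1 array, so that a negative ratio means a lower level in N1ICD-*mdx*. Levels of different probes are not compared with each other. A gene is called where its mean ratio over the 3 arrays is at least 1.5-fold and its unadjusted p from limma is under 0.05.

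The measured genes were lower in N1ICD-*mdx* for nearly the whole list, but the size of the difference came from 1 of the 3 arrays. The mean ratio was negative for 38 of the 40 genes, with a median of -0.65, against a median of -0.00 over all 13706 genes. On the array of replicate 2 the median ratio of the 40 genes was -1.71 and all 40 were negative, which is 3.27-fold lower in N1ICD-*mdx* at the median. On the arrays of replicates 1 and 3 the medians were -0.14 and -0.12, with 30 and 29 of the 40 genes negative. At least 1.5-fold lower were 2 of the 40 genes on the array of replicate 1 (1.07% of all genes), 37 of 40 on that of replicate 2 (12.1% of all genes) and 0 of 40 on that of replicate 3 (1.22% of all genes). The ratio was negative on all 3 arrays for 24 of the 40 genes, against 16.4% of all genes, and positive on all 3 for 0 of the 40, against 17.7% of all genes.

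**Figure D1:**
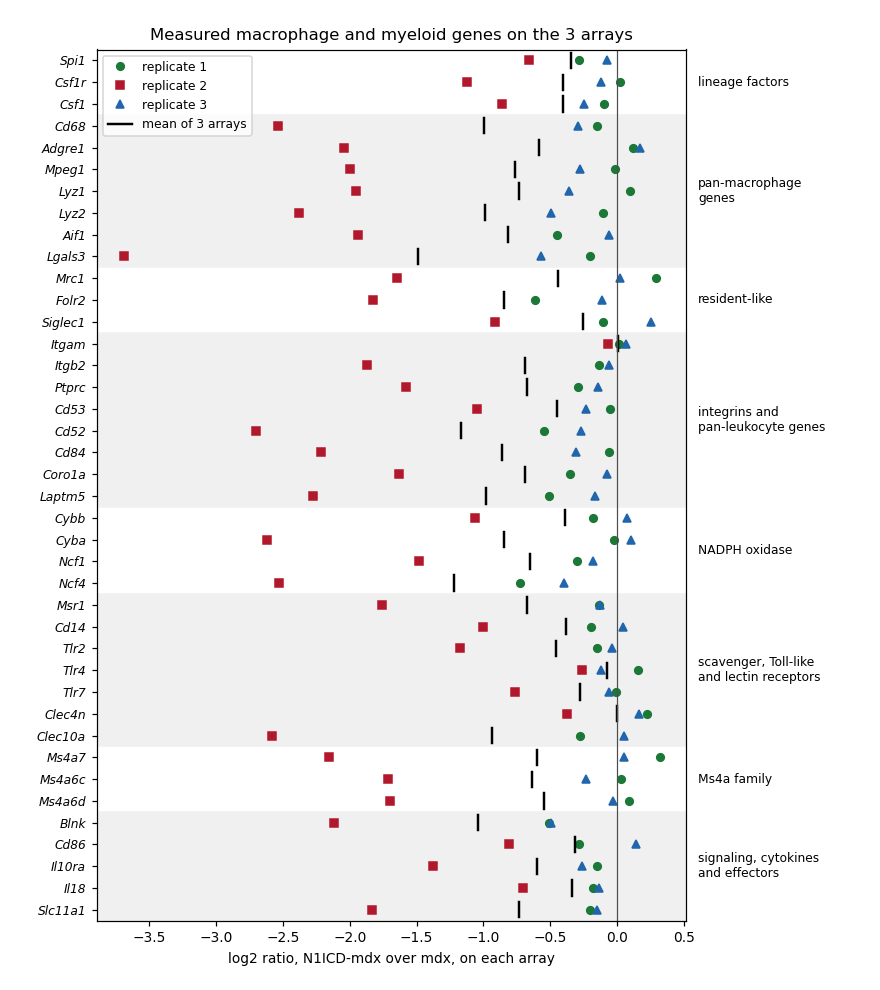
The log2 ratio of N1ICD-*mdx* over *mdx* (x axis) of each of the 40 measured genes (y axis, grouped by role) on the arrays of replicates 1 to 3 (colored points), with the mean of the 3 arrays as a black bar. The points of replicate 2 lie far to the left for most genes, with a median of -1.71, while those of replicates 1 and 3 lie near 0, with medians of -0.14 and -0.12.

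By the test, 1 of the 40 genes was called lower and 0 higher, where 66 of all genes, 0.482%, were called lower and 65 higher. An unadjusted p under 0.05 with a negative ratio was found for the same 1 of 40 genes, against 2.44% of all genes. After Benjamini-Hochberg adjustment over all genes 0 genes passed by limma (smallest adjusted p = 0.253, with 890 genes at an unadjusted p under 0.05) and 0 by the methods' t-test, and the adjusted p of the 40 genes lay between 0.703 and 0.996. The 66 and 65 calls became 391 lower and 30 higher when the arrays were centred on their medians in place of the loess fit, which moved the median of all genes to -0.18, and 173 lower and 271 higher from the scanner's processed signals.

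By their median levels, both muscles of replicate 2 stood at the ends of the range. The median level of the 40 genes was 8.93, 8.23 and 8.46 in N1ICD-*mdx* replicates 1, 2 and 3, against 9.02, 9.81 and 8.52 in *mdx* replicates 1, 2 and 3. The *mdx* muscle of replicate 2 was the highest of the 6 muscles for 38 of the 40 genes, which held for 29.5% of all genes. Its level lay above the mean of the other 2 *mdx* muscles for 39 of the 40 genes, by a median of 1.08. The N1ICD-*mdx* muscle of replicate 2 was the lowest of the 6 for 27 of the 40 genes, against 21.3% of all genes, and lay below the mean of the other 2 N1ICD-*mdx* muscles for 35 of them, by a median of 0.39 (median difference -0.39). Without the array of replicate 2 the median of the mean ratios was -0.14, with 31 of the 40 genes negative. The range over the 3 *mdx* muscles was larger than the mean difference between the genotypes for all 40 genes. The share of all genes for which this held was not computed, so the count is not read as a trait of these genes. Compared with the *mdx* muscles of replicates 1 and 3 alone, the mean of the N1ICD-*mdx* muscles was lower for 36 of the 40 genes. The median difference was -0.27, against -0.01 over all genes. This comparison ignores the pairing and keeps the N1ICD-*mdx* muscle of replicate 2, which was the lowest for many of these genes. The 6 levels did not overlap between the genotypes, with N1ICD-*mdx* lower, for 3 of the 40 genes (*Spi1*, *Folr2* and *Il18*), against 6.26% of all genes, a share near the background. Of these, *Spi1* was admitted through the *mdx* dye alone.

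**Figure D2:**
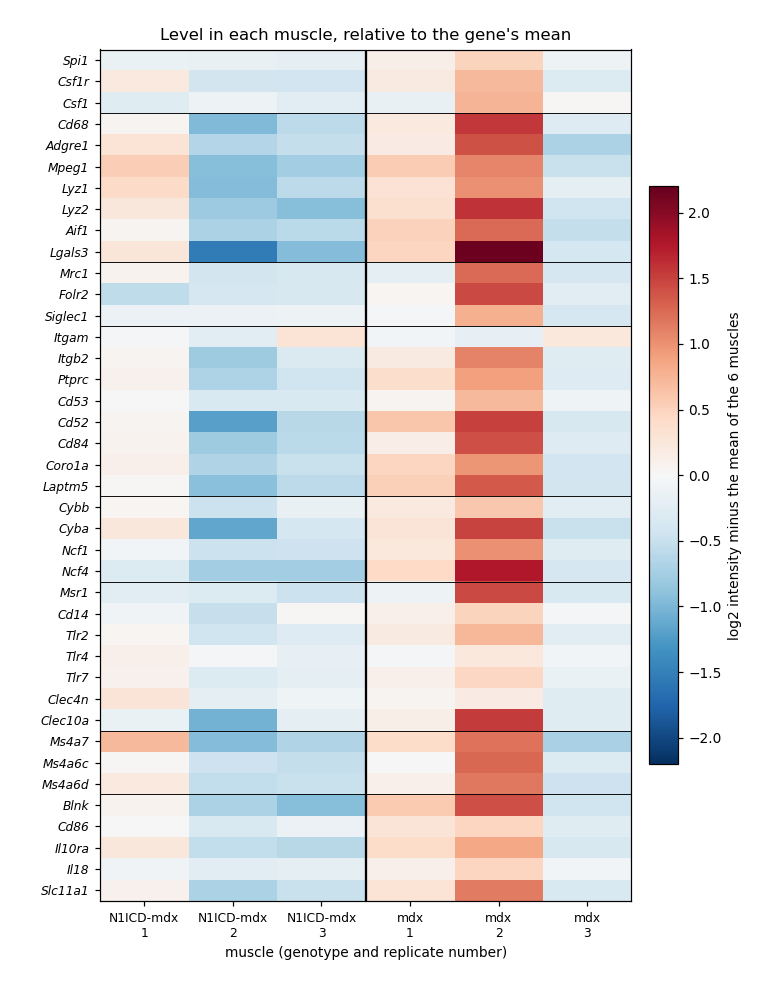
The level of each of the 40 measured genes (rows, grouped by role) in the 6 muscles (columns), as log2 intensity minus the gene's mean over the 6 muscles (color scale). The column of *mdx* replicate 2 is the highest for 38 of the 40 genes, and that of N1ICD-*mdx* replicate 2 the lowest for 27.

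Over the whole array, 51.6% to 57.3% of spots lay well above background in the N1ICD-*mdx* dye and 45.9% to 51.1% in the *mdx* dye, and no spot was saturated. The SD of the ratios of all genes was 0.54 on the array of replicate 2, against 0.24 on each of the other 2. Across all genes, the ratios of replicate 2 correlated with those of replicates 1 and 3 at r = 0.00 and 0.12, and those of replicates 1 and 3 with each other at 0.36, where genes are not independent replicates. *Notch1*, whose intracellular domain the transgene encodes, had a mean ratio of -0.12, but whether its probe lies in that domain is not known. The 4 measured Notch targets (*Heyl*, *Nrarp*, *Hey1* and *Hes1*) had mean ratios of 0.44, 0.28, 0.21 and 0.11. All 4 were higher in N1ICD-*mdx* on all 3 arrays, against 17.7% of all genes. None was called, since each mean ratio was under 1.5-fold, and the unadjusted p of *Heyl* and *Nrarp* was 0.0186 and 0.0331 (limma). *Hes5* and *Hey2* were not measured. The part of the single *mdx* muscle or of this array in the results below was not tested beyond leaving it out.

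Among the lineage factors, *Spi1*, which encodes the transcription factor PU.1, read 6.11, 6.10 and 6.07 in the N1ICD-*mdx* muscles, against 6.40, 6.76 and 6.15 in the *mdx* muscles (replicates 1, 2 and 3, as in all lists of 3 values below). *Spi1* passed the filter through the *mdx* dye alone, so that 1 of its N1ICD-*mdx* levels is not well above background and the order of its levels is partly set by the filter. Its mean ratio was -0.34 ± 0.14 (SE, 3 arrays, as in all errors below; limma, unadjusted p = 0.0691). These levels are close to the background, and the size of the ratio depended on how the background was treated, at -1.54 from the processed signals, -0.74 with an offset of 10 and -0.64 without background correction (limma, unadjusted p = 0.0381, 0.0383 and 0.0324). *Csf1r*, the receptor of the macrophage growth factor, read 12.79, 12.17 and 12.16 in N1ICD-*mdx*, against 12.77, 13.29 and 12.27 in *mdx*. The genotypes overlapped, and only the *mdx* muscle of replicate 2 lay above the highest N1ICD-*mdx* level (mean ratio -0.41 ± 0.26). Its 2 other kept probes had mean ratios of -0.46 and -0.34. *Csf1*, the growth factor itself, read 8.18, 8.32 and 8.21 in N1ICD-*mdx*, against 8.27, 9.18 and 8.45 in *mdx* (mean ratio -0.40 ± 0.18, unadjusted p = 0.0847 by limma). Its ratio was negative on all 3 arrays, although the *mdx* muscle of replicate 1 lay within the N1ICD-*mdx* range.

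All 7 pan-macrophage genes had a negative mean ratio, with a median of -0.81, and none was called. *Cd68*, a glycoprotein of macrophage lysosomes, read 11.31, 10.26 and 10.66 in N1ICD-*mdx*, against 11.46, 12.80 and 10.95 in *mdx*. The *mdx* muscle of replicate 2 stood highest and its N1ICD-*mdx* partner lowest, and the others overlapped (mean ratio -0.99 ± 0.54, ratios -0.15, -2.54 and -0.29). *Adgre1*, an adhesion receptor widely used to mark mouse macrophages, read 9.58, 8.63 and 8.75 in N1ICD-*mdx*, against 9.46, 10.67 and 8.58 in *mdx*. Its ratio was positive on the arrays of replicates 1 and 3 (0.12 and 0.17) and -2.04 on that of replicate 2, while its second probe was negative on all 3 (-0.14, -2.07 and -0.16).

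The lysozymes, secreted enzymes that cut bacterial cell walls, gave similar patterns. *Lyz2* read 11.39, 10.35 and 10.21 in N1ICD-*mdx*, against 11.49, 12.73 and 10.70 in *mdx* (mean ratio -0.99 ± 0.49). *Lyz1* read 13.31, 11.93 and 12.31 in N1ICD-*mdx*, against 13.21, 13.88 and 12.67 in *mdx* (mean ratio -0.74 ± 0.43). Both were highest in *mdx* replicate 2 and overlapped between the genotypes; the 2 genes are close copies, so a probe of either may also bind RNA of the other. *Lgals3*, which encodes galectin-3, a lectin that macrophages secrete, had the most negative mean ratio of the 40 genes, -1.49 ± 0.76, from levels of 13.25, 11.44 and 12.03 in N1ICD-*mdx*, against 13.45, 15.14 and 12.60 in *mdx*. Its ratios of -0.20, -3.69 and -0.57 were all negative, but the spread between arrays was larger than the mean difference (unadjusted p = 0.118, limma). *Mpeg1*, a pore-forming protein of macrophages, and *Aif1*, the calcium-binding protein Iba1, had mean ratios of -0.76 and -0.81 and were likewise negative on all 3 arrays.

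Of the 4 resident-like genes, scavenger and binding receptors that macrophages of healthy tissue carry, 3 were measured. *Folr2*, a folate receptor, read 8.96, 9.15 and 9.17 in N1ICD-*mdx*, against 9.57, 10.98 and 9.28 in *mdx*. Each *mdx* level lay above each N1ICD-*mdx* level (mean ratio -0.85 ± 0.36, unadjusted p = 0.0719 by limma), and without the array of replicate 2 the mean ratio was -0.36. *Mrc1*, the mannose receptor CD206, read 10.22, 9.74 and 9.79 in N1ICD-*mdx*, against 9.93, 11.39 and 9.76 in *mdx*. It was higher in *mdx* replicate 2 than in any other muscle, and on the arrays of replicates 1 and 3 its ratio was positive (0.29 and 0.02, mean of 3 arrays -0.44 ± 0.42). *Siglec1*, the sialic acid receptor CD169, read 6.25, 6.25 and 6.26 in N1ICD-*mdx*, against 6.36, 7.16 and 6.01 in *mdx* (mean ratio -0.25 ± 0.25). Its *mdx* levels lay on both sides of the N1ICD-*mdx* levels, which were nearly equal to each other. *Cd163*, a receptor for hemoglobin bound to haptoglobin, was above background on 2 of the 3 arrays in each dye and was not measured.

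Of the 10 genes taken as inflammatory, 8 were measured, and their mean ratios ran from -0.73 to 0.00. *Slc11a1*, a metal transporter of the phagosome, read 8.94, 8.14 and 8.34 in N1ICD-*mdx*, against 9.14, 9.98 and 8.50 in *mdx* (mean ratio -0.73 ± 0.39). *Il18*, a cytokine released by activated macrophages, read 7.33, 7.17 and 7.21 in N1ICD-*mdx*, against 7.51, 7.87 and 7.34 in *mdx* (mean ratio -0.34 ± 0.15, unadjusted p = 0.0808 by limma). For *Slc11a1* the genotypes overlapped, while for *Il18* each *mdx* level lay above each N1ICD-*mdx* level. *Cd86*, a co-stimulatory receptor for T cells, read 7.19, 6.85 and 7.06 in N1ICD-*mdx*, against 7.47, 7.65 and 6.91 in *mdx* (mean ratio -0.32 ± 0.20).

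Of the pattern receptors among them, *Tlr2*, which binds bacterial lipoproteins, read 7.73, 7.24 and 7.40 in N1ICD-*mdx*, against 7.89, 8.42 and 7.44 in *mdx* (mean ratio -0.46 ± 0.26). *Cd14*, the co-receptor for lipopolysaccharide, read 8.54, 8.11 and 8.64 in N1ICD-*mdx*, against 8.73, 9.11 and 8.60 in *mdx* (mean ratio -0.38 ± 0.23). *Tlr7*, a sensor of single-stranded RNA, read 8.02, 7.62 and 7.70 in N1ICD-*mdx*, against 8.03, 8.38 and 7.77 in *mdx* (mean ratio -0.28 ± 0.18). All 3 were highest in *mdx* replicate 2, with the other muscles overlapping. *Tlr4*, the receptor for lipopolysaccharide, read 7.41, 7.27 and 7.12 in N1ICD-*mdx*, against 7.26, 7.53 and 7.24 in *mdx* (mean ratio -0.07 ± 0.12). *Clec4n*, the lectin dectin-2 of fungal recognition, read 8.93, 8.44 and 8.54 in N1ICD-*mdx*, against 8.70, 8.82 and 8.38 in *mdx* (mean ratio 0.00 ± 0.15). For *Tlr4* and *Clec4n* the levels of the genotypes were interleaved, and their ratios on the array of replicate 2, -0.26 and -0.38, were among the 3 of the 40 that did not reach 1.5-fold. *Il1b*, which encodes the cytokine interleukin-1β, was above background on 2 of the 3 arrays in each dye, and no probe of *Clec7a* (dectin-1) was matched by its accession.

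The resident-like genes did not differ from the inflammatory genes in the same direction on the 3 arrays. On the array of replicate 1 the median ratio was -0.11 for the 3 resident-like and -0.17 for the 8 inflammatory genes, a difference of 0.06. On that of replicate 3 it was 0.02 for the resident-like and -0.05 for the inflammatory genes, a difference of 0.07. On the array of replicate 2 it was -1.65 for the resident-like and -0.78 for the inflammatory genes, a difference of -0.86, with 5 of the 8 inflammatory genes above and 1 below all 3 resident-like genes. On the array of replicate 3, 0 of the 8 lay above and 3 below all 3 resident-like genes, and on that of replicate 1 the counts were 0 and 0. On the array of replicate 1 the sign of the difference depended on the processing, at -0.19 with the processed signals, -0.03 with an offset of 10 and -0.06 with means in place of medians. Over the mean ratios the medians were -0.44 and -0.33 in the same order, a difference of -0.12, and without the array of replicate 2 the difference was 0.15. Lowering the offset added to each intensity, which draws the ratios of dim probes toward 0, from 50 to 10 gave a difference of -0.69 on the array of replicate 2. These are descriptions of 3 and 8 genes, with no test.

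**Figure D3:**
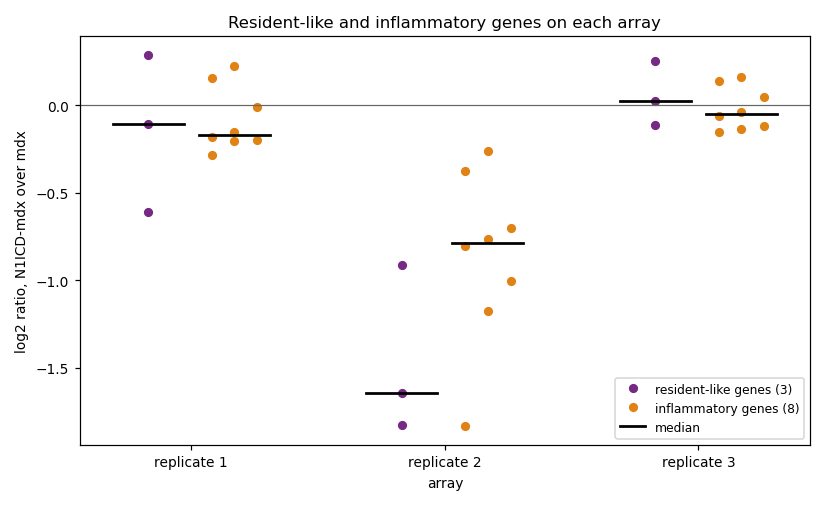
The log2 ratio of N1ICD-*mdx* over *mdx* (y axis) of the 3 measured resident-like and the 8 measured inflammatory genes (points) on each array (x axis), with the median of each group of genes as a black bar. The medians are -0.11 and -0.17 on the array of replicate 1, -1.65 and -0.78 on that of replicate 2 and 0.02 and -0.05 on that of replicate 3, with the resident-like genes given before the inflammatory genes.

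Of the 8 integrins and pan-leukocyte genes, 7 had a negative ratio on all 3 arrays, and the median of their mean ratios was -0.69. *Ptprc*, which encodes CD45, the phosphatase on all leukocytes, read 7.86, 7.08 and 7.32 in N1ICD-*mdx*, against 8.15, 8.66 and 7.47 in *mdx* (mean ratio -0.67 ± 0.32). *Itgb2*, the β chain of the leukocyte integrins, read 8.61, 7.76 and 8.22 in N1ICD-*mdx*, against 8.75, 9.64 and 8.28 in *mdx* (mean ratio -0.69 ± 0.41). Both overlapped between the genotypes and were highest in *mdx* replicate 2 and lowest in N1ICD-*mdx* replicate 2. *Itgam*, the α chain CD11b that pairs with *Itgb2*, read 10.62, 10.41 and 10.96 in N1ICD-*mdx*, against 10.60, 10.47 and 10.89 in *mdx*. Its brightest probe thus showed no difference beyond the spread (mean ratio 0.00 ± 0.09), while its 2 dimmer probes had mean ratios of -0.42 and -0.19, so the probes of this gene disagree.

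*Cd52*, a small surface glycoprotein of leukocytes, read 10.45, 9.19 and 9.78 in N1ICD-*mdx*, against 10.995, 11.90 and 10.04 in *mdx* (mean ratio -1.17 ± 0.53, unadjusted p = 0.0886 by limma). *Laptm5*, a lysosomal membrane protein of blood cells, read 8.98, 8.03 and 8.39 in N1ICD-*mdx*, against 9.49, 10.31 and 8.55 in *mdx* (mean ratio -0.98 ± 0.45, unadjusted p = 0.0917 by limma). Each was lower in N1ICD-*mdx* on all 3 arrays, and the *mdx* muscle of replicate 3 lay within the N1ICD-*mdx* range for both. *Cd84*, a receptor of the SLAM family, *Coro1a*, an actin-binding protein of leukocytes, and *Cd53*, a tetraspanin, had mean ratios of -0.86, -0.69 and -0.45.

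The 4 measured subunits of the phagocyte NADPH oxidase, the enzyme of the respiratory burst, had a median ratio of -0.24, -2.01 and -0.05 on the 3 arrays. *Ncf4*, the cytosolic subunit p40phox, read 9.28, 8.80 and 8.81 in N1ICD-*mdx*, against 10.01, 11.33 and 9.21 in *mdx*. It had the second smallest p of the 40 genes (mean ratio -1.22 ± 0.46, unadjusted p = 0.0534 by limma), and only the N1ICD-*mdx* muscle of replicate 1 and the *mdx* muscle of replicate 3 overlapped. *Ncf1*, the cytosolic subunit p47phox, read 7.46, 7.05 and 7.07 in N1ICD-*mdx*, against 7.75, 8.53 and 7.25 in *mdx* (mean ratio -0.65 ± 0.30, unadjusted p = 0.0874 by limma). The membrane subunits *Cybb* (gp91phox) and *Cyba* (p22phox) had mean ratios of -0.39 and -0.85 and were slightly positive on the array of replicate 3 (0.08 and 0.11).

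Among the other receptors, *Clec10a*, a lectin for galactose-type sugars, and *Msr1*, a scavenger receptor, had mean ratios of -0.93 and -0.67, with -2.58 and -1.76 on the array of replicate 2. *Clec4a2* was above background on 0 of the 3 arrays in both dyes. The 3 genes of the *Ms4a* family, membrane proteins with 4 passes of which *Ms4a7* is a macrophage marker, had ratios between 0.03 and 0.32 on the array of replicate 1 and between -2.16 and -1.70 on that of replicate 2. Their mean ratios were -0.60 for *Ms4a7*, -0.64 for *Ms4a6c* and -0.55 for *Ms4a6d*, and none was negative on all 3 arrays.

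*Blnk*, an adaptor protein that links receptor signals through the kinase Syk to downstream enzymes in B cells and macrophages, was the 1 called gene. It read 10.06, 9.30 and 9.05 in N1ICD-*mdx*, against 10.57, 11.42 and 9.55 in *mdx*. Each N1ICD-*mdx* muscle lay below the *mdx* muscle on its own array, by ratios of -0.51, -2.12 and -0.49, although the levels overlapped between arrays. The mean ratio of -1.04 ± 0.38 is 2.06-fold lower in N1ICD-*mdx* (limma, unadjusted p = 0.0473, adjusted p = 0.703). Without the array of replicate 2 the mean ratio was -0.50, which is under 1.5-fold, with an unadjusted p of 0.00138 (limma). Without that of replicate 1 the mean ratio was -1.30 with an unadjusted p of 0.0603 (limma). The call was lost in both cases, by the fold threshold in the first and by the p in the second. Of the B cell markers, 3 of 8 were measured, with median ratios of -0.38, -0.66 and 0.18 on the 3 arrays. Their summed intensities were 271 to 446 in N1ICD-*mdx* muscles, against 378 to 592 in *mdx* muscles. The brightest of these markers made up 20% to 50.7% of the sum. The part of the B cell markers in the result for *Blnk* was not tested.

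*Il10ra*, the receptor chain for the anti-inflammatory cytokine interleukin-10, read 8.74, 7.95 and 7.87 in N1ICD-*mdx*, against 8.89, 9.33 and 8.13 in *mdx* (mean ratio -0.60 ± 0.28, unadjusted p = 0.0953 by limma). Its ratio was negative on all 3 arrays, and the genotypes overlapped. *Arg1*, the arginase of repair-type macrophages in mice, was above background on 0 of the 3 arrays in N1ICD-*mdx* and 1 of 3 in *mdx*, and was not measured.

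Other genes of the lineage, taken as a second list of 38 macrophage genes, had median ratios close to those of the 40 genes. Of its 32 measured genes 29 had a negative mean ratio, with medians of -0.19, -1.58 and -0.15 on the 3 arrays, and 3 were called lower (*Retnla*, *F13a1* and *Cebpa*), against 0.482% of all genes. With 1 array left out 2 to 5 were called, *Retnla* each time, and 8 were called with median centring, 5 with an offset of 10, 1 with no filter on dim probes, and 0 by the methods' t-test. *Retnla* was not called with no block and without the *mdx* muscle of replicate 2. Without that of replicate 2 *F13a1* and *Cebpa* were no longer among them, at mean ratios of -0.50 and -0.41. *F13a1*, a subunit of coagulation factor XIII, read 10.42, 10.28 and 9.97 in N1ICD-*mdx*, against 10.77, 11.99 and 10.62 in *mdx*, and *Cebpa*, a transcription factor of myeloid cells, read 7.54, 7.16 and 7.08 in N1ICD-*mdx*, against 7.94, 8.78 and 7.51 in *mdx*. The N1ICD-*mdx* levels of *F13a1* all lay below its *mdx* levels, and those of *Cebpa* overlapped with *mdx* at 1 muscle. *Retnla*, a secreted product of alternatively activated mouse macrophages, read 10.38, 11.17 and 10.44 in N1ICD-*mdx*, against 11.15, 12.19 and 11.21 in *mdx*. Its ratios of -0.77, -1.02 and -0.76 were all negative and past 1.5-fold (mean ratio -0.85, limma, unadjusted p = 0.000778). *Nos2*, the inducible nitric oxide synthase of inflammatory macrophages, ran the other way, with ratios of 0.29, 0.33 and 0.43, which is under 1.5-fold.

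Markers of other cell types in the muscle were read on the same arrays. The summed intensity of the 40 genes was 28841 to 60492 in N1ICD-*mdx* muscles, against 40830 to 132442 in *mdx* muscles. The median ratio of the 40 genes on the array of replicate 2 was -1.71. There it was -0.66 for 3 of 8 B cell and -0.56 for 7 of 12 neutrophil markers. The T and NK cell markers (9 of 14) had a median of -0.34 and the dendritic cell markers (7 of 8) of -0.24. Medians were -0.18 for 8 of 8 fibroblast, -0.17 for 9 of 9 endothelial and -0.07 for 5 of 6 mast cell markers. For 5 of 6 satellite cell and myoblast markers the median was 0.06. On the arrays of replicates 1 and 3 the lists lay closer together, with medians of -0.14 and -0.12 for the 40 genes. The dendritic cell markers had medians of -0.10 and -0.13 there, and the B cell markers of -0.38 and 0.18. Those of the neutrophil markers were -0.01 and -0.10, and those of the T and NK cell markers 0.08 and 0.12. On the array of replicate 2 single genes reached -1.97 among the B cell, -1.62 among the fibroblast and -1.45 among the satellite cell and myoblast markers. Among the T and NK cell and the endothelial markers they reached -1.08 and -1.05. The endothelial value is that of *Kdr*, with ratios of -0.26, -1.05 and -0.46 on the 3 arrays. *Kdr* was called lower (mean ratio -0.59, limma, unadjusted p = 0.0283, adjusted p = 0.703). It was the 1 call among the 9 endothelial markers, against 0.482% of all genes, and 5 of the 9 had a positive mean ratio. The summed intensities of the neutrophil, dendritic cell, and T and NK cell lists were 9994 to 12292, 12008 to 15181 and 2516 to 3377 in N1ICD-*mdx* muscles, against 10916 to 11189, 13610 to 16132 and 3067 to 3294 in *mdx* muscles. A single bright probe made up 89.1% to 94.1% of the neutrophil sum (*Csf3r*) and 90.5% to 95% of the dendritic cell sum (*Siglech*), 2 genes named after their values were seen, with ratios of -0.06 and -0.20 on the array of replicate 2. Dimmer markers of the same lists had ratios there of -1.69 (*S100a9*) and -2.25 (*Itgax*), so that these sums do not stand for each list as a whole. The brightest gene also made up 44.4% to 52.3% of the T and NK cell sum. In the sum of the 40 genes its share was 9.66% to 27.2%. All 11 muscle fiber markers had a positive mean ratio, with medians of 0.36, 0.90 and 0.58 on the 3 arrays, and 4 of them were called higher, against 0.474% of all genes (1 with the processed signals). Their summed intensity was 784808 to 877229 in N1ICD-*mdx* muscles, against 508021 to 593535 in *mdx* muscles, and the lowest of these was the *mdx* muscle of replicate 2. The part of the fiber RNA in the ratios of the macrophage genes was not tested.

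**Figure D4:**
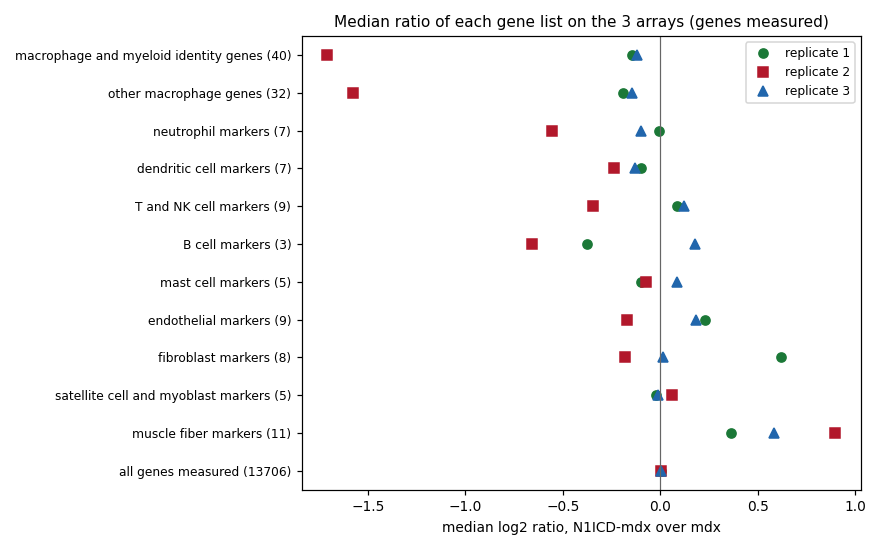
The median log2 ratio of N1ICD-*mdx* over *mdx* (x axis) on each of the 3 arrays (points) for the 40 measured macrophage and myeloid identity genes, for lists of other macrophage genes and markers of other cell types, and for all genes, with the number of genes measured in brackets. On the array of replicate 2 the macrophage lists lie at -1.71 and -1.58 and the muscle fiber markers at 0.90.

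The stretches before the start sites of these genes were searched for short motifs of factors known to act in myeloid cells. RefSeq promoters of build GRCm38.p6 were used for 28 of the 45 genes, at 33 start sites, and the 250 bases before each start were read on both strands. Starts on a chromosome that was left out for the listed genes were still counted among all starts. AGGAAGT, a core bound by PU.1, the product of *Spi1*, stood before 8 of the 33 starts (24.2%), against 7.69% of all 32851 starts in the table. TTNNGNAA, bound by C/EBP factors, stood before 17 (51.5%), against 36.8% of all, and GAAANNGAA, part of an interferon response element, before 9 (27.3%), against 7.13% of all. GGAANNGAA, at which PU.1 binds with IRF factors, stood before 3 (9.09%), against 6.99% of all, and can overlap AGGAAGT. These are matches of letters and no binding was measured. A few are shown for genes described above: *Blnk*, the called gene; *Folr2*, the resident-like gene with the most negative mean ratio; *Cybb*, of the oxidase; and the paired lysozymes. Capitals mark every match of the 4 motifs.

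Blnk, chr19:40994222-40994471, minus strand: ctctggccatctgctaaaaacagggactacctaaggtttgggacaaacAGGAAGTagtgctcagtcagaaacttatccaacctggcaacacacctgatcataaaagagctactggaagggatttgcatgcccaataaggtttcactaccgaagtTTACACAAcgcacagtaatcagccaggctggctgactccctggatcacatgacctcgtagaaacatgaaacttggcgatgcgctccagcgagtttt

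Folr2, chr7:101857191-101857440, minus strand: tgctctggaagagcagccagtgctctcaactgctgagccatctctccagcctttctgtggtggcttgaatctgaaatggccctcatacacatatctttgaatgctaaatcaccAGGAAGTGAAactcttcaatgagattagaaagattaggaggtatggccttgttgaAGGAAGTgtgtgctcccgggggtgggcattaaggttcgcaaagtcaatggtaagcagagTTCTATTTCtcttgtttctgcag

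Cybb, chrX:9469325-9469574, minus strand: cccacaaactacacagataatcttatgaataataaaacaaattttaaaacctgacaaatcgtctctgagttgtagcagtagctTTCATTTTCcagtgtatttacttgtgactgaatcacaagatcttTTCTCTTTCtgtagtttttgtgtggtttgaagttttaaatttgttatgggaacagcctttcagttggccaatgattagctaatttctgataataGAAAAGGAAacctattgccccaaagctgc

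Lyz2, chr10:117282273-117282522, minus strand: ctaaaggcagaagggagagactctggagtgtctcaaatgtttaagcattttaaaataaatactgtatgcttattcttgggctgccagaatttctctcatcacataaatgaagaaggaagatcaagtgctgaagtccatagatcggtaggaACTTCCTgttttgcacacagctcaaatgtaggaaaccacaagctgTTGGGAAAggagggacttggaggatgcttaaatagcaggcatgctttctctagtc

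Lyz1, chr10:117292869-117293118, minus strand: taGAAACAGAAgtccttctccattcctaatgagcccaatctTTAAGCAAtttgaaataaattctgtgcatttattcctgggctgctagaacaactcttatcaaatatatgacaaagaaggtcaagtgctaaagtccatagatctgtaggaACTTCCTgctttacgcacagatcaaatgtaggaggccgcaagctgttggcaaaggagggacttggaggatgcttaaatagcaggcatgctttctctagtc

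*Blnk* has the PU.1 core 202 to 196 bases before its start and a C/EBP match closer by. *Folr2* has the PU.1 core at 2 places, the farther of which (137 to 131 bases before the start) overlaps the composite motif, while *Cybb* has 3 interferon response matches and no PU.1 core in this window. *Lyz2* and *Lyz1* share the PU.1 core, on the strand opposite the gene, 100 to 94 bases before the start, where the stretches are identical at 60.8% of positions when set side by side without gaps. Of the 28 genes, 7 had no match of the 4 motifs in this window, among them *Lgals3* and *Laptm5*, whose mean ratios of -1.49 and -0.98 were among the most negative, as well as *Il18* and *Csf1*.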

How the data were processed

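The authors hybridized RNA of TA muscle to Agilent SurePrint G3 Mouse GE 8 x 60K two-color arrays, with N1ICD-*mdx* in Cy5 and *mdx* in Cy3, and the submitters' processing notes name Agilent Feature Extraction 11.5 for the scans. The deposited files hold, per the file headers, the median intensity, local background and processed intensity of each spot in each dye, and flags. The median intensities were not yet normalized between dyes, while the processed intensities had been background-subtracted and dye-normalized by the scanner software. The array design was annotated on mouse build mm9, and no array coordinates are given here. Depth does not apply to arrays; the 3 arrays limit the precision.

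Median signals were background-corrected with normexp (offset 50) in limma 3.58.1 (R 4.3.3), and the dyes of an array were then brought together by a loess fit in which control spots had weight 0. Levels of single muscles followed from Aquantile normalization between arrays. Of 55681 non-control probes 28026 were named through RefSeq and 17814 of these kept, for 13706 genes, 3436 of them with several kept probes. The ratios of the 3 arrays were fitted with an intercept in lmFit and eBayes, and p-values were adjusted over all genes by the Benjamini-Hochberg method. The script was tested on simulated data.

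The pairing comes from the labels, which put muscles of the same replicate number on 1 array. The deviations of paired muscles from their group means correlated at -0.02, -0.29 and 0.34 over all genes; only the pair of replicate 3 deviated together. Replicates are labelled as biological. The genes and lists were chosen with earlier results of these data known. By the rule for named genes, values in every muscle were given for the lineage factors, resident-like and inflammatory genes, chosen markers, called genes and the 5 further genes of smallest p. Up to 3 genes of smallest p in each other list could be named. *F13a1*, *Cebpa*, *Csf3r*, *Siglech*, *Hes1* and *Notch1* were named outside this rule, after their values were seen. The values of *Lgals3* in every muscle were also given outside it, since its mean ratio was the most negative of the list. Alternatives were median centring, an offset of 10, signals left without background correction, the processed signals, other filters and probe rules, a moderated test with trend and robust variance, array weights, leaving out each array, a fit without the pairing and the methods' t-test.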

Additional observations from a re-analysis of the deposited data

How the results depend on the processing

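The median ratio of the measured genes, 40 except for 44 with no filter and 39 with a filter on both dyes, stayed negative under every alternative run, between -0.85 with median centring and -0.21 with array quality weights, and ran from -0.92 to -0.14 with 1 array left out, the last without replicate 2. Of the measured genes, 1 was called lower with the processed signals (*Spi1*; 1.26% of all genes), with the mean over probes (*Blnk*; 0.394%) and with no replicate block (*Ncf4* in place of *Blnk*, in a fit that ignores the pairing; 0.423%), and 3 without background correction (0.627%) and 3 with an offset of 10 (0.817%), *Blnk*, *Ncf4* and *Spi1* in both. With median centring 10 were called (2.85% of all genes), and relative to the median of all genes the median of the 40 was then -0.67. A total of 2 were called with a filter on both dyes (0.55% of all genes) and 2 with trend and robust variance (0.54%), and 0 with no filter (0.189%), 0 with array quality weights (0.657%), 0 by the methods' t-test (0.109%; 0 after Benjamini-Hochberg) and 0 (0.182%) with no replicate block and without the *mdx* muscle of replicate 2, an alternative chosen after seeing the data in which the median ratio was -0.27. Leaving out an array gave 0 to 5 calls, the 5 without replicate 3 (0.62%, 0.547% and 0.817% of all genes without replicates 1, 2 and 3). Without replicate 2 none of the 40 genes reached 1.5-fold, the most negative mean ratio being -0.56 for *Ncf4*. The 0 calls in that setting thus followed from the fold threshold, whatever the p. None of the measured genes passed an adjusted p under 0.05 under any of these, and 0 to 3 of all genes did. Over the whole array the 131 calls became 444 with the processed signals, 222 with an offset of 10, 421 with median centring, 207 with array quality weights, 67 by the methods' t-test (15 lower and 52 higher), 124 with no replicate block and 185 to 207 with 1 array left out. The cause was not tested in any of these cases.

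The difference between resident-like and inflammatory genes changed sign with array quality weights (0.08) and without replicate 2 (0.15; -0.40 to 0.15 over the arrays left out), and was 0.25 with no replicate block and without the *mdx* muscle of replicate 2. Single genes turned sign as follows. With array quality weights *Adgre1* read 0.055, *Siglec1* 0.12, *Cd86* 0.0061, *Mrc1* 0.0030 and *Ms4a7* 0.0029. With median centring *Clec4n* read -0.24 and *Itgam* -0.23, and with the mean over probes *Itgam* read -0.20. Without the *mdx* muscle of replicate 2 *Itgam* read -0.087, *Mrc1* 0.069, *Siglec1* 0.071 and *Tlr4* 0.020. With 1 array left out the ranges were -0.96 to 0.14 for *Adgre1*, -0.11 to 0.19 for *Clec4n*, -1.32 to 0.041 for *Cyba*, -0.027 to 0.040 for *Itgam*, -0.81 to 0.16 for *Mrc1*, -0.87 to 0.027 for *Ms4a6d*, -1.05 to 0.18 for *Ms4a7*, -0.51 to 0.074 for *Siglec1* and -0.19 to 0.020 for *Tlr4*. Probes near the background, such as those of *Spi1* and *Siglec1*, limit the ratios that can be read.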
